A study of Mus musculus with 2 samples.

Results

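The cells described here are the 894 medulloblastoma cells of 1 Drop-seq library whose column names carry the tag G2. Drop-seq captures single cells in droplets and counts each messenger RNA molecule once by a molecular barcode (a UMI). The tag G2 is a name in the deposited table and not the G2 phase of the cell cycle. Every column whose name began with this tag was taken, which gave 894 of the 4991 cells of the library, or 17.9%, and 894 of the 10991 cells and barcodes of the series. Tag G2 held the most cells of the 16 tags, followed by tag G13 with 528. No label explains the tags or says which values they were made from.

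Tag G2 was set against the 4097 cells of the other 15 tags and, in particular, against the 353 cells of tag G1. All of them came from tumours of hGFAPcre;Ptchc/c mice at postnatal days 24 to 30. The genotype name gives Cre recombinase under the human GFAP promoter and a conditional allele of Ptch, the receptor that restrains Sonic hedgehog signalling. All groups compared here share this genotype, and whether the allele was recombined in their cells was not tested. The second library of the series, from the same genotype at postnatal day 12, has 6000 barcodes and no tags, so tag G2 cells cannot be picked out there. How many animals were used, and how cells were chosen for the table, is not stated in the labels.

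A tag within 1 library has no replicate. The values below are therefore descriptions with no test, their 95% intervals cover counting error only, and the tags may have been made from the same values. Ratios were computed on CPM, that is UMIs summed over the cells of a tag, divided by all UMIs of those cells and multiplied by 1000000. A ratio of tag G2 over another tag was called higher or lower past 1.5-fold, for genes that had 50 or more UMIs in the 2 sides together. Tag G2 cells held 2734858 UMIs in all, with a median of 2702.5 per cell (range 442 to 11847) and 1391.5 genes. The other tags had a median of 2034 UMIs and tag G1 a median of 3269, so the cells compared differ in depth. Mitochondrial genes took 2.76% of the UMIs of tag G2 and 3.67% of those of the other tags. Fewer cells of a kind and less RNA per cell cannot be told apart in a sum over cells. Along the columns of tag G2 the depth stepped up, with a median of 2470 UMIs in the first 743 cells and 3875 in the last 151, and no label says why. Column names of this library hold no barcode sequence, so barcodes shared between the 2 libraries could not be counted, and no doublets were removed here.

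A dividing cell makes the transcripts of each phase in turn. Genes for licensing origins and copying DNA, many of them driven by E2F factors, are transcribed from late G1 into S phase. The core histone genes are transcribed while DNA is copied, and genes for the mitotic spindle and the separation of chromosomes follow in G2 and M phase, many of them through promoters with a cell cycle homology region (CHR) read by MuvB complexes. In this tumour type the dividing cells resemble progenitors of cerebellar granule neurons, which leave the cycle as they differentiate.

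The promoters of 4 of the 5 genes proposed as markers of tag G2 are printed here because they differ in which of these elements they hold, and Cdc20 is added because it was the lowest gene of the spindle list against tag G1. Each window runs from 250 bases before the start of transcription to 50 after it, 5′ to 3′ along the gene, from RefSeq on GRCm38.p6. Capitals mark an E2F word (TTTGGCGC, TTTCGCGC, TTTCCCGC or TTTGCCGC) or a CHR word (TTTGAA or TTCGAA), searched on both strands. Clspn lies at chr4:126556730-126557029 on the plus strand, Lig1 at chr7:13278576-13278875 on the plus strand and Hmmr at chr11:40733388-40733687 on the minus strand. Cenpa lies at chr5:30666636-30666935 on the plus strand and Cdc20 at chr4:118437294-118437593 on the minus strand. Lig1 has 3 windows in that table, and the first of them that holds an E2F or CHR word is shown. The table used has no window for Ccne2.
Clspn: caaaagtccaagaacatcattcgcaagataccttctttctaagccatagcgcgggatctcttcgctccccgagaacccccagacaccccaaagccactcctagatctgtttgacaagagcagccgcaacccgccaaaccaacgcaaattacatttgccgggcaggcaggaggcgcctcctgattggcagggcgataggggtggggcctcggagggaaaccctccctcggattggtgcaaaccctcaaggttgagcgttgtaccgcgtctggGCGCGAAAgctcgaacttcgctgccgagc
Lig1: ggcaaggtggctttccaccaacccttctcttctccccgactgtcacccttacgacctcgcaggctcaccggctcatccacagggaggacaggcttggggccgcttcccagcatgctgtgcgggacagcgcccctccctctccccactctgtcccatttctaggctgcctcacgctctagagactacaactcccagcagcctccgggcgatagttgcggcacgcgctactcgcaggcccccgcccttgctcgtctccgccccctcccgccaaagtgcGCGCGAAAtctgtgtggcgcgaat
Hmmr: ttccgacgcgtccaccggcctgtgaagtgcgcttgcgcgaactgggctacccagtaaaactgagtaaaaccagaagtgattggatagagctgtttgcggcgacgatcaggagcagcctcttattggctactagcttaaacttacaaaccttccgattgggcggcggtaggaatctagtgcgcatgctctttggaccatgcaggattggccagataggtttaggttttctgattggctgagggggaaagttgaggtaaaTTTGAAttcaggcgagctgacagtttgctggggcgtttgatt
Cenpa: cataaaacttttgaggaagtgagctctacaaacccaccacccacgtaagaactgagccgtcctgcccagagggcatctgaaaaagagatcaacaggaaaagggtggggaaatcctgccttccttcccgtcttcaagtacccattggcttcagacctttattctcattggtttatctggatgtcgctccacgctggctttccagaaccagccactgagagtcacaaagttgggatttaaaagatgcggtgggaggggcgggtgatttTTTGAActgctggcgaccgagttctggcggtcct
Cdc20: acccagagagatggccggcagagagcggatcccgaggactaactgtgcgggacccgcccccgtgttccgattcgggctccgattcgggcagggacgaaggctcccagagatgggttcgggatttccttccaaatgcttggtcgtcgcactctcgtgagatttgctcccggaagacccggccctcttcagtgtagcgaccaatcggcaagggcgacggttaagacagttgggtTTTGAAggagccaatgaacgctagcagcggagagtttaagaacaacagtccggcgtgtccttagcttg

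The windows of Clspn and Lig1 hold the E2F word TTTCGCGC on the opposite strand, so that it reads GCGCGAAA here, starting 22 and 27 bases after the start site. Those of Hmmr and Cenpa hold the CHR word TTTGAA 9 and 17 bases after it, and that of Cdc20 holds it 18 bases before it, at -18. An E2F word stood in 2.26% of all 32851 windows of this length and a CHR word in 19.2%. A match is a match of letters and says nothing of binding.

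The proposed markers fell into 2 kinds. Ccne2, Clspn and Lig1, genes of S-phase entry and DNA copying, were higher in tag G2 than in the other tags and in tag G1. Hmmr and Cenpa, genes of the spindle and of the centromere, were lower in tag G2 than in either, except that Hmmr turned higher than the other tags when each of these was given equal weight.

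Ccne2 (cyclin E2, which drives entry into S phase) had 99.8 CPM in tag G2 (95% Poisson interval 88.3 to 112), against 33.9 CPM in the other tags and 27.5 CPM in tag G1. That is a ratio of 2.94 to the other tags (2.50 to 3.47) and of 3.64 to tag G1 (2.54 to 5.36). Among the 16 tags only tag G3 was higher, at 146 CPM (118 to 179), and the next below was tag G6 at 49.4 CPM. The 3′ end of Ccne2 overlaps Ints8 in the annotation, and whether counting used the strand is not given, so some of its UMIs may be of that gene.

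Clspn (claspin, an adaptor of the replication checkpoint) had 230 CPM in tag G2, 74.8 CPM in the other tags and 150 CPM in tag G1. Its ratio was 3.08 to the other tags (2.76 to 3.43) and 1.53 to tag G1 (1.30 to 1.81). Tag G2 was the highest of the 16 for this gene, but tag G3 at 209 CPM overlapped it in counting error.

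Lig1 (DNA ligase I, which joins Okazaki fragments) had 461 CPM in tag G2, 178 CPM in the other tags and 205 CPM in tag G1. The ratios were 2.58 (2.40 to 2.78) to the other tags and 2.25 (1.96 to 2.58) to tag G1. Tag G3 had 506 CPM (452 to 564), with an interval that overlapped that of tag G2 (436 to 487).

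Hmmr (a hyaluronan receptor that binds spindle microtubules) had 133 CPM in tag G2, 191 CPM in the other tags and 526 CPM in tag G1. Its ratio was 0.70 to the other tags (0.62 to 0.78) and 0.25 to tag G1 (0.22 to 0.29). Tag G2 ranked below tags G16 (738 CPM) and G1, and above the other 13 tags, with tag G10 (111 CPM) within counting error of it. With equal weight its log2 ratio to the other tags was 0.35; of its 1816 UMIs in the other tags, tag G16 held 1013 and tag G1 held 652. Hmmr shares a stretch of 50 bases with 2 other annotated genes.

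Cenpa (the histone H3 variant of centromeres) had 97.6 CPM in tag G2, 224 CPM in the other tags and 406 CPM in tag G1, with ratios of 0.44 (0.38 to 0.49) and 0.24 (0.21 to 0.28). Tags G16 (933 CPM), G1 and G6 (134 CPM) were above tag G2, and tags G3 (87.1 CPM) and G5 (85.5 CPM) were within counting error of it.

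Shares of cells with a UMI followed the levels against tag G1, but not for every marker against the other tags. After each cell was thinned to 1000 UMIs, which left out 5 shallower cells of tag G2 and 1 of tag G1, Lig1 was seen in 32.7% of 889 tag G2 cells and 19.9% of 352 tag G1 cells. Without thinning these were 62.0% and 38.2%. Cdc20 was seen in 8.10% of thinned tag G2 cells and 33.5% of thinned tag G1 cells, or 18.6% and 68.8% without thinning. Hmmr was seen in 9.90% of thinned tag G2 cells and 10.5% of thinned cells of the other tags, but without thinning in 25.2% of tag G2 cells and 16.3% of the others, the reverse of the order of its CPM, and no order is read from these shares. Cenpa was seen without thinning in 19.4% of tag G2 cells and 20.3% of the others. In the neuron-like tags G11 to G13 (median 1576 UMIs before thinning), where Mki67 was seen in 6.07% of cells without thinning, thinned Lig1 was at 3.30% and Cdc20 at 1.85% of 757 cells. In tag G8, whose 35 cells all carry at least 3 microglia markers (median 2002 UMIs), both were at 0 after thinning, which allows up to 8.57% by a limit of 3 counts, and without thinning Lig1 was seen in 2.86%.

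**Figure D1:**
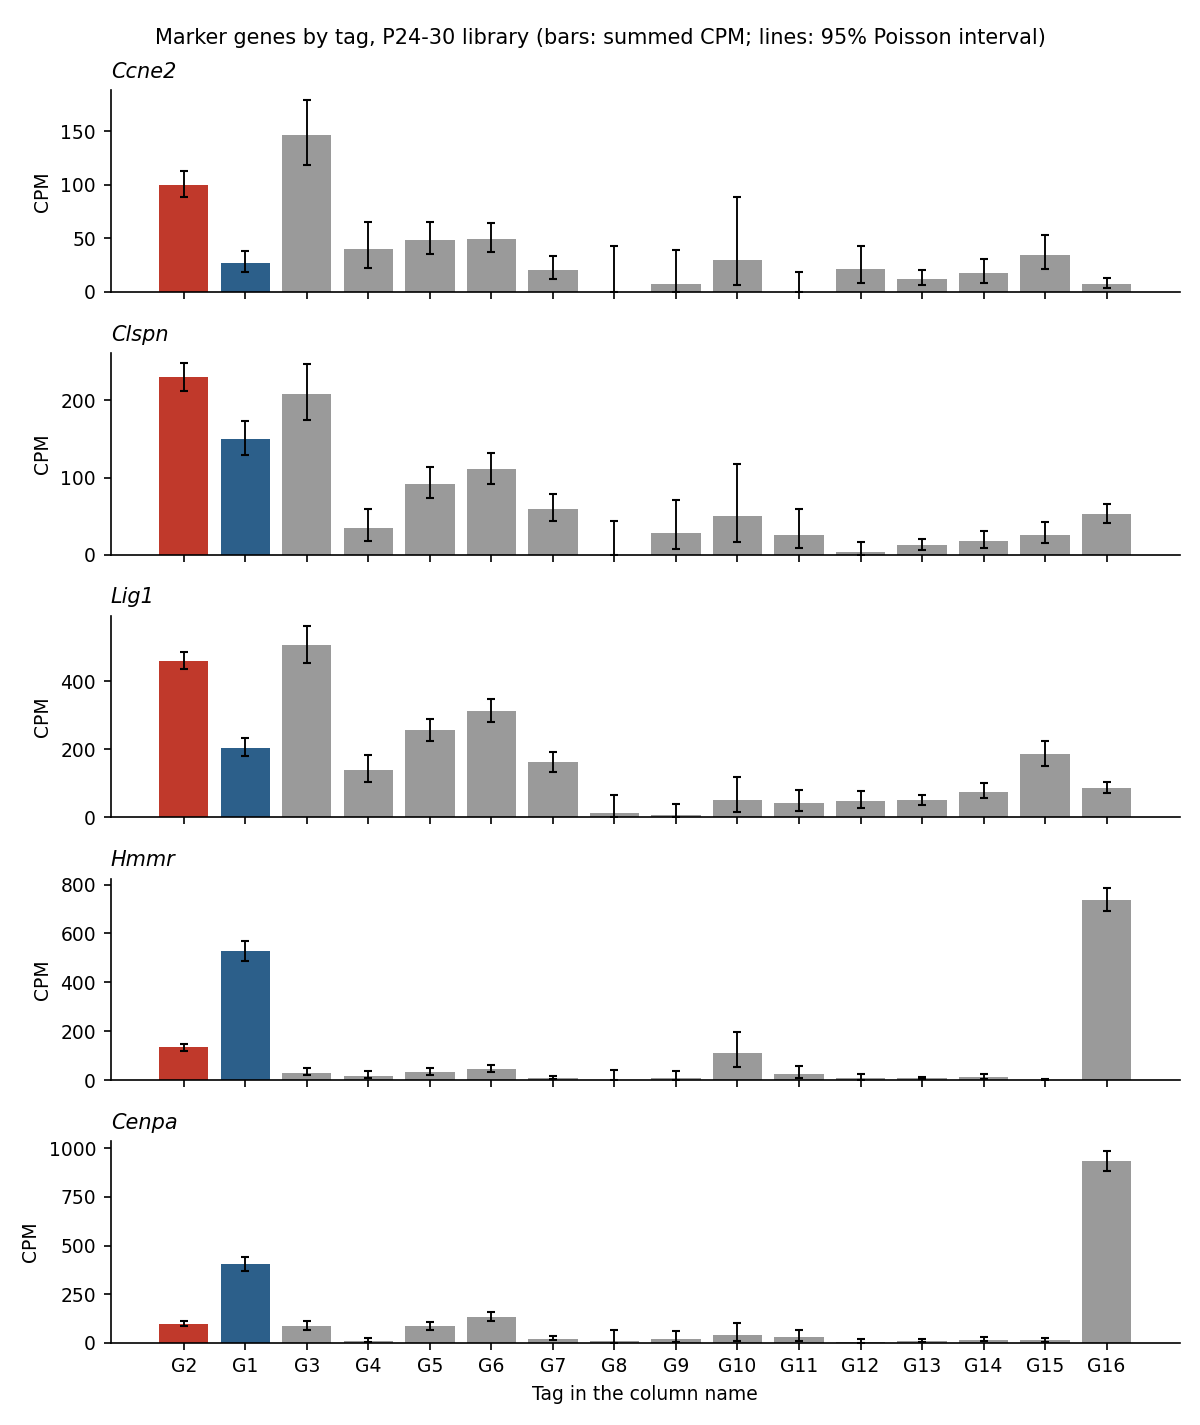
Summed CPM of the 5 proposed markers in each of the 16 tags (bars from 0, tag G2 in red, tag G1 in blue), with 95% Poisson intervals. Ccne2, Clspn and Lig1 are high in tags G2 and G3, while Hmmr and Cenpa are highest in tags G16 and G1.

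Genes of origin licensing and DNA copying were for the most part higher in tag G2. Against the other tags, 658 of 11179 genes tested were higher (5.89%) and 2466 were lower (22.1%), with a median log2 ratio of -0.17 over all genes. Relative to that median gene, 1114 were higher and 1806 lower. Of 24 genes of G1/S entry and licensing, 19 were higher and 0 lower, with a median log2 ratio of 0.89. The top of that list was E2f7, a repressor of the E2F family, at a ratio of 3.09, followed by Ccne2; E2f7 shares a stretch of 50 bases with 42 annotated genes. At its foot stood Cdc25a, a phosphatase that activates S-phase kinases, at 1.36, and Orc1, a subunit of the origin recognition complex, at 1.39, neither past the threshold.

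Of 35 replication fork genes, 32 were higher and 0 lower, with a median log2 ratio of 1.05. Pole, the catalytic subunit of DNA polymerase epsilon, had 35.5 CPM in tag G2 and 10.4 CPM in the other tags (ratio 3.41, 2.55 to 4.56). Cdc45, a subunit of the replicative helicase, had 89.9 and 28.4 CPM (ratio 3.17, 2.66 to 3.78). Gins1, of the same helicase, was among the 3 that did not pass, at 1.15.

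Of 15 genes of nucleotide synthesis, 13 were higher and 0 lower, with a median log2 ratio of 0.74. Tk1, the thymidine kinase of dividing cells, had 156 CPM in tag G2 and 35.5 CPM in the other tags (ratio 4.40, 3.80 to 5.09). Rrm2, the small subunit of ribonucleotide reductase, had 300 and 86.8 CPM (ratio 3.46, 3.14 to 3.82). Impdh2, of guanine nucleotide synthesis, was at 1.22. Both Tk1 and Rrm2 share a stretch of 50 bases with another annotated gene.

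Repair by homologous recombination and the checkpoint had 21 of 24 members higher and 0 lower, with a median log2 ratio of 0.91. Brca1, which acts at broken and stalled forks, had 56.3 CPM in tag G2 and 16.5 CPM in the other tags (ratio 3.42, 2.72 to 4.29). Fancd2, the protein that is ubiquitinated in the Fanconi anaemia pathway, was at a ratio of 3.69, and its 3′ end overlaps Fancd2os. Atrip, the partner of the ATR kinase, stood at 0.95.

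Most licensing and fork genes were higher than in tag G1 too, while most of nucleotide synthesis and of homologous recombination did not pass the threshold. Against tag G1, 567 of 7548 genes were higher (7.51%) and 495 lower (6.56%), with a median log2 ratio of 0.01. Licensing genes had 17 of 23 higher and 0 lower (median 1.06), fork genes 22 of 35 and 0 (0.62), and nucleotide synthesis 7 of 15 and 0 (0.44). Homologous recombination had 6 of 24 higher and 1 lower (0.29). Both comparisons use the same tag G2 cells, and tag G1 is among the other tags.

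Ung, Cdc6 and other genes of DNA copying and repair were among the 12 highest against tag G1. Cdc6, which loads the replicative helicase at origins, had 42.8 CPM in tag G2 and 8.07 CPM in tag G1 (117 and 10 UMIs, ratio 5.30, 2.78 to 11.3). Ung, the glycosylase that removes uracil from DNA, had 129 UMIs in tag G2 and 4 in tag G1, a ratio of 14.6 with an interval of 5.57 to 54.4. Cdt1, the partner of Cdc6 in licensing, was at 3.27, Dtl, which targets Cdt1 for degradation, at 3.33, and Dscc1, of a clamp loader, at 3.94. Chaf1b, of the complex that places histones on new DNA, was the highest fork gene at 3.31. Pcna, the sliding clamp, had 746 CPM in tag G2 and 282 CPM in tag G1 (2.65). Its near-identical pseudogene Pcna-ps2 was listed at nearly the same level (2.69), so UMIs of these genes cannot be told apart. Against the other tags, Ung in tag G2 was within counting error of equal (interval 0.79 to 1.17).

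Chek2, the checkpoint kinase, was the member of the homologous recombination list lower than in tag G1, at 0.59, and it shares a stretch of 50 bases with 187 annotated genes. Asf1b, a histone chaperone, was the lowest fork gene at 0.91, and E2f7 and E2f8, a related repressor, the lowest of licensing at 1.11 each.

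**Figure D2:**
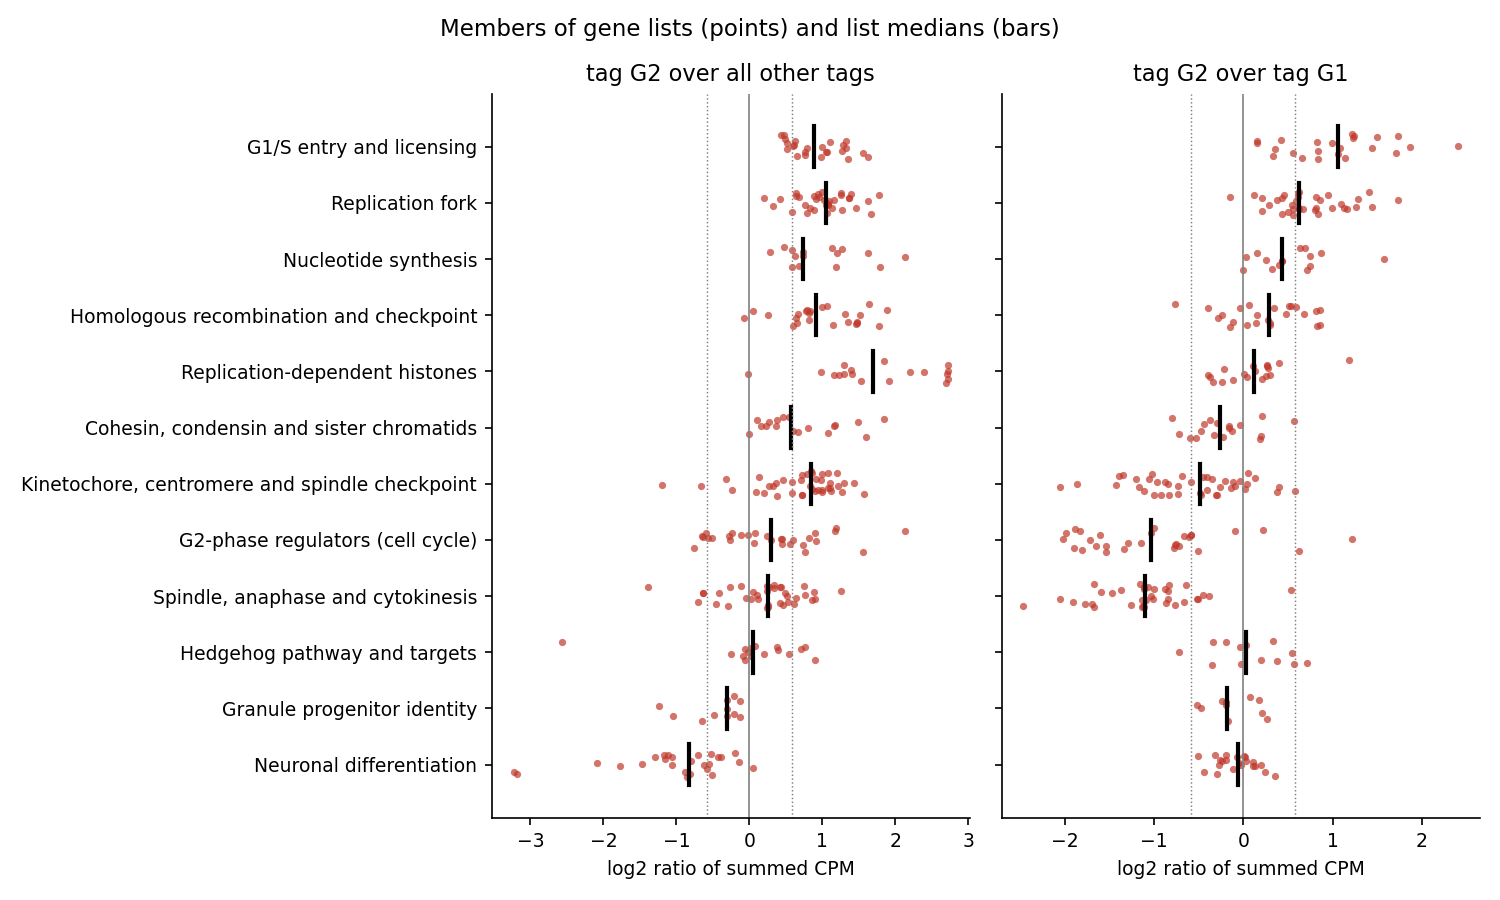
Log2 ratio of summed CPM for each tested member of 12 gene lists (points) and the list's median (bars), tag G2 over the other tags on the left and over tag G1 on the right; dotted lines mark 1.5-fold. Medians of the replication lists lie right of 0 in both panels, though single members lie left of it. Most spindle genes lie left of 0 against tag G1, and most neuronal genes lie left of 0 against the other tags.

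Most spindle genes were lower in tag G2 than in tag G1, while their place against the other tags depended on how these were pooled. Against tag G1, 0 of 36 genes of the spindle, anaphase and cytokinesis were higher and 31 were lower, with a median log2 ratio of -1.10. Cdc20, which activates the anaphase-promoting complex, had 86.3 CPM in tag G2 and 476 CPM in tag G1 (ratio 0.18, 0.16 to 0.21). Its 3′ end overlaps Elovl1, and it shares a stretch of 50 bases with another gene. Kpna2, an importin, was at 0.24. Outside this list, Ube2c, the ubiquitin-conjugating enzyme of anaphase, was at 0.25, and Pif1, a DNA helicase, at 0.21. Hyls1, a centriole protein, was at 0.16, and Fam83d, which recruits a kinase to the spindle, at 0.17.

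Against the other tags the same list had 8 of 37 members higher and 4 lower, with a median log2 ratio of 0.26. That median was 0.97 with equal weight of the other tags, 0.64 without tag G1 and 0.0225 without tags G11 to G13. Of the 30 mitosis markers, 11 were higher and 7 lower than in the other tags, and 0 higher and 27 lower than in tag G1. Of all genes tested, 5.89% were higher and 22.1% lower than in the other tags, and 7.51% and 6.56% than in tag G1. In the spindle list Kif15, a mitotic kinesin, was the highest at 2.39, and Espl1, the separase that cuts cohesin, followed at 1.86. Cdc20 at 0.38 and Aspm, a protein of the spindle poles, at 0.61 were the lowest, though with each of the other tags given equal weight Aspm was at a log2 ratio of 0.04. Kif15 shares a stretch of 50 bases with 34 annotated genes.

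Of 29 regulators of the G2 phase, 10 were higher and 4 lower against the other tags (median 0.30). Of all genes, 5.89% were higher and 22.1% lower. Against tag G1, 2 of the regulators were higher and 23 lower (median -1.04), beside 7.51% and 6.56% of all genes. The 2 that were higher than in tag G1 were Mybl2, the MYB factor that joins the MuvB complex from S phase, and Pkmyt1, a kinase that holds Cdk1 inactive. Mybl2 had 30.0 CPM in tag G2, 6.83 CPM in the other tags and 12.9 CPM in tag G1 (ratios 4.39 and 2.32). Pkmyt1 was at 2.94 to the other tags and 1.54 to tag G1. Cdc25c, the phosphatase that releases Cdk1 at mitosis, was at 0.59 and 0.27, and at a log2 ratio of 0.08 to the other tags when these had equal weight. Top2a, topoisomerase II alpha, had 1224 CPM in tag G2, 538 CPM in the other tags and 1842 CPM in tag G1. Mki67, the common proliferation marker, had 704 CPM in tag G2, 415 CPM in the other tags and 1192 CPM in tag G1.

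Kinetochore and centromere genes split by the other side of the comparison. Against the other tags 28 of 41 were higher and 2 lower (median 0.85), and against tag G1 0 were higher and 19 lower (median -0.48). Cenph and Spc24, both of the kinetochore, led at 2.97 and 2.70, while Cenpa and Cenpe, the kinetochore motor at 0.63, were the lower ones. Cenpe was at a log2 ratio of 0.03 with equal weight of the other tags. Spc24 shares a stretch of 50 bases with 145 annotated genes. Cenph was also above tag G1, at 1.49 (1.27 to 1.76), just under the threshold. Of 18 genes of cohesin and condensin, 9 were higher and 0 lower than in the other tags (median 0.57), and 0 were higher and 3 lower than in tag G1 (median -0.26). Esco2, which acetylates cohesin while DNA is copied, had 309 CPM in tag G2 and 85.8 CPM in the other tags (ratio 3.60, 3.27 to 3.97), and 346 CPM in tag G1. Ncapg2, of condensin II, was at 3.04 to the other tags. Pds5b, a cohesin regulator, was at 0.99, and Rad21, the cleavable cohesin subunit, at 0.57 to tag G1.

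Summed over marker lists, tag G2 was the only tag among the top 3 for both phases. The 30 S-phase markers summed to 5325 CPM in tag G2, second to tag G3 with 6172 CPM and ahead of tag G6 with 4089 CPM. Tag G1 had 2717 CPM. The 30 mitosis markers summed to 5984 CPM in tag G2, below tag G16 (17479 CPM) and tag G1 (13436 CPM), and the next was tag G10 with 2482 CPM.

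**Figure D3:**
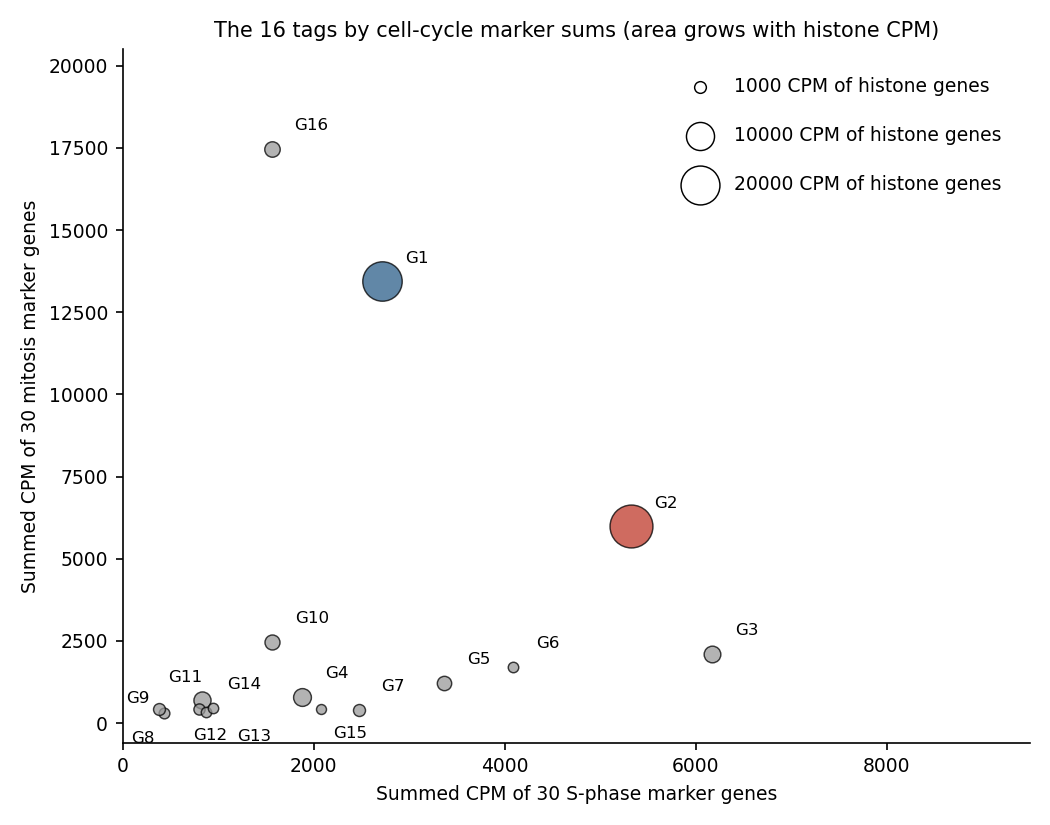
Each of the 16 tags by the summed CPM of 30 S-phase markers (x axis) and 30 mitosis markers (y axis), with tag G2 in red and tag G1 in blue; the area of a point grows with the summed CPM of replication-dependent histone genes. Tag G2 lies at 5325 and 5984 CPM, apart from tag G3 at the right and tags G16 and G1 at the top, and only tags G2 and G1 have large points. Most histone UMIs of tag G2 are of H2A genes.

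Summed replication-dependent histone genes set tags G2 and G1 apart from every other tag, though not in every family. These genes are transcribed in S phase, and most of their mRNA ends in a stem-loop and not in the poly(A) tail that Drop-seq captures, so the levels are those of the tailed or otherwise captured part. The 19 genes of the list that are in the table summed to 24549 CPM in tag G2, against 3986 CPM in the other tags, a ratio of 6.16 (6.08 to 6.24). In tag G2 this was 67139 UMIs, while all H1, H2B, H3 and H4 genes held 953, 2598, 1683 and 1548 UMIs. Most of this sum in tag G2, and of the sums and per-cell values of the list below, is therefore of H2A genes. In tag G1 the 19 genes summed to 20586 CPM. In the other 14 tags the sum ran between 475 CPM (tag G15) and 3486 CPM (tag G4). Of 18 tested, 17 were higher than in the other tags (median log2 ratio 1.69), and against tag G1 1 was higher and 0 lower (median 0.12).

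By family, the 18 H2A genes of the table held 42888 CPM in tag G2, 6642 CPM in the other tags and 35591 CPM in tag G1. 11 of the 12 highest genes against the other tags were H2A genes of the Hist1 cluster on chromosome 13, at ratios between 6.45 and 6.88. Hist1h2ap had 7799 CPM in tag G2, 1180 CPM in the other tags and 6477 CPM in tag G1 (ratio 6.61, 6.46 to 6.76, to the other tags). It held 18.2% of H2A UMIs in tag G2, 18.2% in tag G1 and 18.4% in tag G16. Hist1h2ap shares a stretch of 50 bases with 21 annotated genes, so its UMIs and those of the copies it shares it with cannot be told apart here. Hist1h2ao, Hist1h2ag and Hist1h2ad share one with 21 genes too, and Hist1h2ak with 19, so ratios of these genes are not separate values. For Hist1h2ac no such stretch was found in its last 500 bases, and it was at 6.45 to the other tags.

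For the linker histone genes Hist1h1a, Hist1h1b and Hist1h1c no shared 50-base stretch was found in their last 500 bases. They too were higher than in the other tags. Hist1h1b had 55.9 CPM in tag G2, 19.3 CPM in the other tags and 50.9 CPM in tag G1 (ratio 2.90, 2.32 to 3.61, to the other tags). Hist1h1a, at 18.3 CPM in tag G2 and 8.07 CPM in tag G1, was the gene of the list higher than in tag G1 (2.26, 1.13 to 5.01). The H3 genes summed to 615 CPM in tag G2, 161 CPM in the other tags and 543 CPM in tag G1. The H4 genes summed to 566, 210 and 494 CPM in the same order, and the H2B genes to 950, 558 and 1332 CPM. Tag G10 had 585 CPM of H4 genes (444 to 756) and tag G9 1096 CPM of H2B genes (931 to 1282). Their intervals overlapped those of tag G2. For linker genes tag G10 had 303 CPM (204 to 432), beside 348 CPM in tag G2 (327 to 371). Hist1h2bc, an H2B gene, was the one that did not pass, at 0.99, and Hist1h1c was the lowest that did, at 1.98. H2afx, the H2A variant of DNA damage, whose transcript can end either way, had 937 CPM in tag G2, 234 CPM in the other tags and 1002 CPM in tag G1.

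Every thinned cell of tag G2 carried these UMIs. After thinning to 1000 UMIs, a tag G2 cell held a median of 24 histone UMIs (range 2 to 63). Tag G1 had a median of 19 (range 6 to 63). Medians were at most 3 in each of the other 14 tags, with single cells reaching 13 in tag G3 and 14 in tag G16. The first quartile in tag G2 was 16, above those highest cells, while the lowest tag G2 cells overlapped them.

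**Figure D4:**
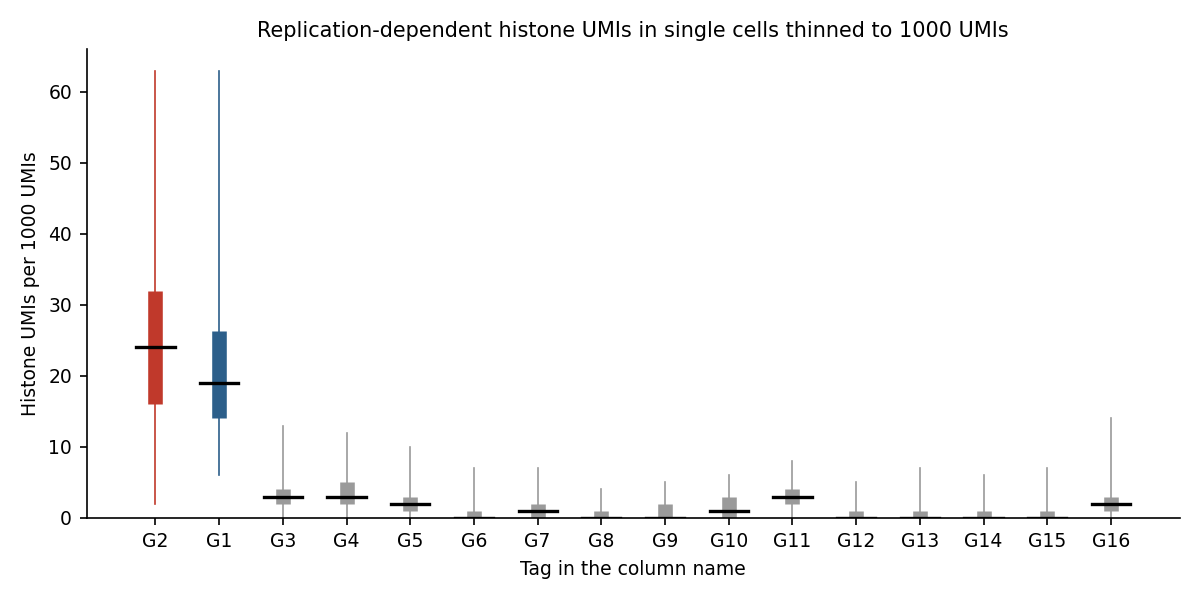
Histone UMIs per cell after thinning to 1000 UMIs, by tag (black lines: medians; thick bars: the quartiles; thin lines: lowest to highest cell). Tags G2 and G1 have medians of 24 and 19, and the other 14 tags have medians of at most 3. Most histone UMIs of tag G2 are of H2A genes.

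Within tag G2 the histone level hardly followed the other phase markers. Cells were put into ranges by their thinned UMIs, S-high above 3 S-phase marker UMIs and mitosis-high above 2 mitosis marker UMIs, the 95th percentile of neuron-like tags G11 to G13. These are ranges of a score and not cell types, and 226 and 165 of the 889 cells lay within 1 UMI of the S-phase and mitosis limits. The mitosis markers include Top2a, which alone was seen in 66.7% of thinned tag G2 cells and 84.4% of thinned tag G1 cells. In tag G2 494 cells (55.6%) were high for both, 251 (28.2%) for mitosis only, 122 (13.7%) for S phase only and 22 (2.47%) for neither. In tag G1 97 of 352 cells (27.6%) were high for both, 253 (71.9%) for mitosis only and 2 for S phase only. The shares moved with thinning depth and limit: cells high for both were 32.0% at 500 UMIs, 71.7% at 1500 UMIs and 15.6% with the 99th percentile. In tag G2 the histone genes summed to 21717 CPM in S-high cells, 25369 CPM in cells high for both and 24260 CPM in mitosis-high cells. Cells high for neither had 25250 CPM.

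Of the lists, with the genes that set the ranges left out, some graded across the ranges of tag G2 and some did not. The 24 fork genes not used as markers summed to 2851 CPM in S-high cells, 2658 CPM in cells high for both and 2088 CPM in mitosis-high cells. The 29 spindle genes not used summed to 2176, 3262 and 4098 CPM in the same order. In cells high for neither, the fork genes had 2757 CPM and the spindle genes 2743 CPM. Homologous recombination genes summed to 1545, 1588 and 1324 CPM over the first 3 ranges, and cohesin and condensin genes to 4760, 5702 and 5653 CPM, with no steady gradient. Cks2, a subunit of Cdk1 complexes, had 119, 259 and 435 CPM. Markers come from the same cells as these sums, so the grading is a description. Microglia markers summed to 5.17 CPM in S-high and 43.3 CPM in mitosis-high cells, and their part in these values was not tested.

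**Figure D5:**
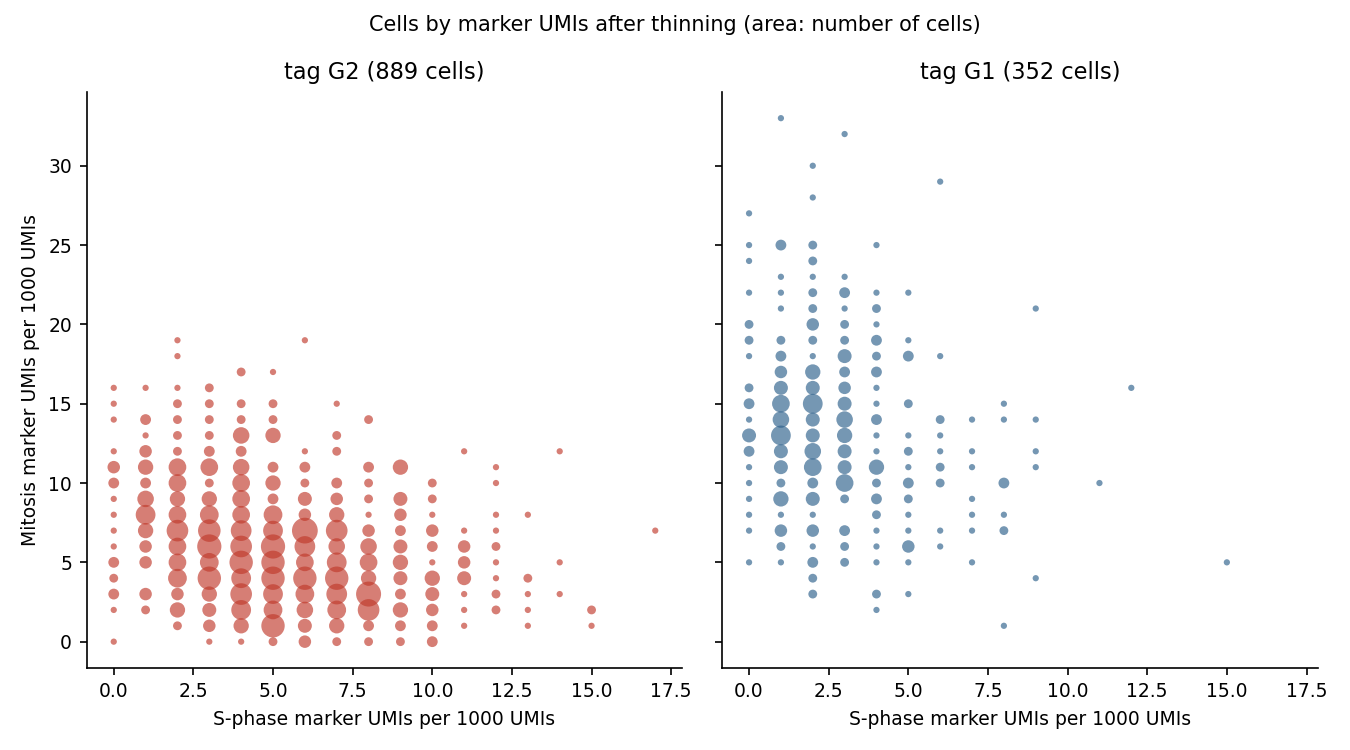
Number of cells (area) by S-phase and mitosis marker UMIs after thinning to 1000 UMIs, in 889 tag G2 cells (left) and 352 tag G1 cells (right). Tag G2 cells centre on 5 S-phase and 6 mitosis UMIs, and tag G1 cells on 2 and 13.

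Set beside the tags with the highest sums of S-phase and of mitosis markers, tag G2 differed from each in other lists. This pair, tag G3 and tag G16, was chosen after the values were seen. Against tag G3, 714 of 7076 genes were higher (10.1%) and 548 lower (7.74%). Fork genes were near equal, with 3 of 35 higher, 1 lower and a median log2 ratio of 0.01, while 8 of 23 licensing genes were lower and 2 higher (median -0.50). Nucleotide synthesis had 2 of 15 higher and 2 lower (median 0.09), and homologous recombination 6 of 23 higher and 2 lower (median 0.22). Spindle genes were 32 of 35 higher and 0 lower (median 1.39), and histone genes 17 of 18 and 0 (median 1.59, or 24549 CPM against 2950 CPM in tag G3). Ung, at 47.2 CPM in tag G2 and 135 CPM in tag G3, was among the 12 lowest, and Nusap1, a spindle protein, at 264 and 34.2 CPM, was among the 24 highest.

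Against tag G16, 916 of 7654 genes were higher (12.0%) and 815 lower (10.6%). Licensing genes were 22 of 23 higher and 0 lower (median 1.61), fork genes 33 of 35 and 0 (1.35), and histone genes 17 of 18 and 0 (1.61, or 24549 CPM against 2406 CPM). Spindle genes were 0 of 36 higher and 31 lower (median -1.56). Tcf19, a factor whose transcript rises at the G1/S boundary, had 285 UMIs in tag G2 and 2 in tag G16, or 104 and 1.46 CPM (ratio 71.5, 19.6 to 593). Tcf19 had 33.1 CPM in tag G1 and 27.3 CPM in the other tags as a whole.

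Promoters with E2F and CHR words were divided between the marker lists, but not between all lists. Of 24 S-phase markers with a window, 12 held an E2F word and 4 a CHR word, and of 27 mitosis markers 0 held an E2F word and 22 a CHR word. Of 14 nucleotide synthesis genes with a window, 0 held an E2F word and 2 a CHR word, although most of that list was higher than in the other tags. Over all genes with a window, 2.60% held an E2F word and 21.7% a CHR word. Against tag G1, 12.7% of 353 tested genes with an E2F word were higher and 5.67% lower. Of 1033 tested genes with a CHR word 5.91% were higher and 14.4% lower, and of all 5910 tested genes with a window 7.24% were higher and 7.06% lower. The medians were 0.10, -0.06 and 0.01 on the log2 scale. Against the other tags 19.6% of 455 genes with an E2F word were higher, and so were 9.32% of 1448 genes with a CHR word, against 5.94% of all 8681 genes with a window. Of the genes with a CHR word 22.4% were lower, against 22.2% of all. These sets include the members of the lists above, and most genes with either word moved by less than 1.5-fold.

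Genes of neuronal differentiation were lower than in the other tags and near those of tag G1. Of 26 tested, 0 were higher and 18 lower than in the other tags, beside 5.89% and 22.1% of all genes. Their median log2 ratio was -0.83. Cntn2, an adhesion protein of young granule neurons, had 52.7 CPM in tag G2, 223 CPM in the other tags and 51.7 CPM in tag G1 (ratio 0.24, 0.20 to 0.28, to the other tags). Neurod1, a bHLH factor of differentiating granule cells, had 452, 1013 and 547 CPM in the same order. Cntn1 and Syt1, of axons and synapses, were the lowest at 0.11 each, and Etv1, an ETS factor, was the highest at 1.04. Against tag G1, 0 of 22 were higher and 0 lower (median -0.06). Tag G3 was near tag G2 too, with 1 of 22 higher and 2 lower in tag G2 (median -0.10). Against tag G16, 0 of 22 were higher and 7 lower (median -0.46). Of 11 granule progenitor identity genes, 0 were higher and 3 lower than in the other tags (median -0.31), near the 22.1% lower of all genes. Atoh1, which keeps granule progenitors dividing, was at 0.91, the homeobox factor Barhl1 at 0.63, the bHLH factor Nhlh1 at 0.48 and Mfng, which modifies Notch receptors, at 0.42.

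Hedgehog pathway genes were spread around a ratio of 1. Of 16 tested, 3 were higher and 1 lower than in the other tags (median 0.05), beside 5.89% and 22.1% of all genes. Against tag G1, 1 of 13 was higher and 1 lower (median 0.03), beside 7.51% and 6.56%. Ptch1, the targeted receptor, had 12.8 CPM in tag G2 and 12.2 CPM in the other tags (35 and 116 UMIs); counts of a 3′ end do not check a deletion elsewhere in the gene. Gli1, a target and effector of the pathway, had 150 CPM in tag G2, 80.9 CPM in the other tags and 131 CPM in tag G1 (ratio 1.86, 1.64 to 2.10, to the other tags). Its 3′ end overlaps Arhgap9. Hhip, an inhibitor induced by the pathway, was at 1.63 and Gli3, a factor of the Gli family, at 1.70 (0.93 to 3.01), while Igf2, a growth factor, was at 0.17. Of 433 Igf2 UMIs in the other tags, 168 lay in 1 cell. Mycn, a target that drives growth of the progenitors, was at 0.98.

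Inhibitors of the cycle did not share a direction, with 3 of 15 higher and 5 lower than in the other tags (median -0.11). Of all genes 5.89% were higher and 22.1% lower. Rbl1 (p107), which binds E2F factors, was at 2.53 (1.96 to 3.25), and Cdkn1a (p21) had 67.3 CPM in tag G2, 29.9 CPM in the other tags and 59.7 CPM in tag G1. Btg1, an antiproliferative gene, was at 0.54 and Gadd45a, a stress-induced gene, at 0.50. Lists with few members past the threshold against the other tags were growth genes of the MYC type (1 higher, Nop56 of the nucleolus at 1.58, and 1 lower, of 20) and immediate early genes (1 higher, Egr1 at 1.75, and 1 lower, of 8). Targets of p53 and apoptosis had 1 of 15 higher and 4 lower, glycolysis 0 of 15 and 6, and Notch and stem-cell factors 0 of 17 and 7, beside 22.1% lower of all genes. The Notch median was -0.53, and -0.0471 without cells carrying 3 markers of another cell type. Polycomb and DNA methylation genes had 6 of 15 higher and 2 lower, with a median of 0.24, which was -0.48 in the last 151 cells of tag G2. Genes of the nuclear lamina had 3 of 12 higher and 0 lower, and histone variants and their chaperones 5 of 16 and 1.

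Markers of other cell types were low in tag G2. The 12 microglia markers summed to 19.7 CPM in tag G2 and 329 CPM in the other tags (in tag G2 Tmem119 and Aif1 were at 0), the 11 of astrocytes or Bergmann glia to 294 and 1359 CPM, and the 13 of the oligodendrocyte lineage to 223 and 480 CPM. Vascular markers summed to 24.1 CPM in tag G2 and 106 CPM in the other tags, and erythroid markers to 22.7 and 282 CPM. Oligodendrocyte-lineage markers had 224 CPM in tag G1, 202 CPM in tag G3 and 213 CPM in tag G16, near tag G2. Those of astrocytes or Bergmann glia had 459, 419 and 278 CPM in the same order. At least 3 markers of 1 other type were carried by 33 of 894 tag G2 cells and 306 of 4097 other cells. The genes furthest below the other tags, such as Ttr of the choroid plexus and Lyz2 of myeloid cells, are markers of such types, and several rest on 1 cell; 348 of 363 Prr15l UMIs of the other tags lay in 1 cell.

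Some of the furthest genes of tag G2 itself also rest on 1 cell. All 127 UMIs of Kcna7, a potassium channel gene, lay in 1 of the 894 cells, and 238 of 290 UMIs of Lmbrd1 in 1 cell. In tag G1, 340 of 340 UMIs of Tfap2a, 115 of 118 of Lyz2 and all 62 of Lyz1 lay in 1 cell. With each gene's largest cell on either side left out, the 12 highest genes against the other tags were all H2A genes. Ung, Bag2 (a co-chaperone), Cdc6 and Zfp367 (a zinc finger protein) then led against tag G1, with Cdc20 and Hyls1 at the low end.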

How the data were processed

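The P24-30 table holds natural log values that the authors deposited for 4991 cells and 19714 genes. Turned back to a linear scale and divided by each cell's smallest value above 0, 100% of 6195642 values came out whole within 0.001, so they were used as UMIs (12256463 in all, 216 to 50208 per cell). The unit and this step were read from the values. The P12 table holds counts as the authors deposited them, with no tags, and gave only library totals. The submitters' processing notes name CASAVA and mm10, while aligner, counting rules and normalization settings were not given in the sources used here.

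UMIs were summed per tag and scaled to CPM. Levels have exact Poisson intervals, ratios exact conditional (Clopper-Pearson) intervals and shares exact binomial ones, all at 95%, and all cover counting error only. With 1 library there is no test. No cell was filtered out of the main values. Genes entered a comparison with 50 UMIs over both sides, and 1.5-fold was the threshold. A side at 0 was set to a floor of 3 UMIs. Genes were named by rule: the proposed markers, the 12 highest and 12 lowest by the interval bound nearer 1 (without mitochondrial, ribosomal protein and unnamed genes) and the 2 highest and 2 lowest of each list. Ung, Pcna, Top2a, Mki67, Esco2, H2afx, Tcf19 and a few others were kept or added after their values were seen, and 1 gene that the rule names is not reported here. The tags, gene lists and members were chosen with earlier results of these data known. Stretches of 50 bases shared with another gene, and overlaps at the 3′ end, came from GENCODE vM21 (mm10). Only the last 500 bases of each gene's transcripts were searched, and other transcripts at steps, so a shared stretch can be missed. Counting by strand is not given, so overlapping genes, which also include Atrip, Impdh2, Nop56 and Pkmyt1, are uncertain. Promoter windows came from RefSeq on GRCm38.p6. Simulated tables of Poisson counts, made with known ratios, were checked with the same code, which checks the code and not the spread between cells. Python 3.11.15, numpy 2.4.6, scipy 1.17.1, pandas 2.3.3 and matplotlib 3.10.9 were used.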

Additional observations from a re-analysis of the deposited data

How the results depend on the processing

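No paired analysis was possible because each age has 1 library and the tags carry no replicate number. Of the list medians recomputed under other settings, 647 stayed within the interval of the value reported and 19 did not. Among these, the Polycomb median changed sign, at 0.24 over all tag G2 cells and -0.48 in the last columns. Of the recomputed gene ratios, 1919 stayed within theirs, 175 did not, and 9 whose interval did not hold 0 changed sign.

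Sign changes against the other tags, as log2 ratios, came with equal weight of the other tags for Kpna2 (0.40), Hmmr (0.35), Ube2c (0.28), Cdc25c (0.0805), Aspm (0.0441) and Cenpe (0.0254). Without tag G1, Kpna2 was at 0.0527. Lmbrd1 was at -0.75 with its largest cell left out and at -0.88 in the last columns of tag G2.

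With equal weight, the log2 list medians against the other tags were 1.51 for kinetochore, 1.45 for S-phase markers, 1.20 for fork genes, 1.02 for mitosis markers, 0.97 for spindle, 0.93 for histone variants, 0.86 for G2-phase regulators and 0.41 for MYC-type genes. Without tag G1 they were 1.25 for kinetochore and 0.64 for spindle, and with the mean of the cells' CPM 1.12 and 0.64. Without tags G11 to G13 the spindle median was 0.0225. Relative to the median gene, fork genes were at 1.22, kinetochore at 1.02 and MYC-type genes at 0.39. Notch factors were at -0.0471 without cells carrying 3 markers of another type. In the last columns spindle genes were at -1.21 against tag G1.

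Gene counts follow the minimum and the fold by construction. Against the other tags, higher genes numbered 1114 relative to the median gene, 3566 with no minimum and 225 at 2-fold. Lower genes numbered 3854 at 20 UMIs, 1619 at 100 UMIs, 5215 with no minimum and 1163 at 2-fold. Against tag G1, higher genes numbered 1106, 283, 2033 and 147 at 20 UMIs, at 100 UMIs, with no minimum and at 2-fold, and lower genes 887, 291, 4821 and 131. The last columns alone gave 347 higher genes.

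Shares of tag G2 cells by range moved with depth. At 500 UMIs 32.0% were high for both, 41.2% for mitosis only and 11.1% for neither. At 1500 UMIs these were 71.7%, 23.0% and 0.600%, with 4.68% high for S phase only. With the 99th percentile they were 15.6%, 46.8% and 21.5%. Another random seed gave 10.1% high for S phase only. The cause of the other shifts was not tested. Leaving out each gene's largest cell, keeping only members with no shared 50-base stretch and splitting the columns of tag G2 were chosen after seeing the data.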
